A study of Mus musculus with 18 samples.

Results

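Meis1 and Meis2 are described here through the H3K4me3 peaks that lie over them in mouse pancreatic islets. H3K4me3, histone H3 trimethylated on lysine 4, was mapped by ChIP-seq, in which an antibody recovers the DNA wrapped around the marked histone for sequencing. Members are all peaks that overlap an mm9 window on chromosome 11 (18770000 to 18930000, Meis1) or on chromosome 2 (115600000 to 115950000, Meis2). There are 20 of them among 43339 peaks, 12 of 21905 in the list of control islets and 8 of 21434 in the list of Men1 knockout islets. The loci were selected on the covered length, peak number, edges and scores of these same lists, so every value of the control and knockout lists at the loci below is a description and carries no test.

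The control library came from RIP-Cre mice, which express Cre recombinase from the rat insulin promoter, and the other library from mice labelled as a Men1 islet-specific knockout. All were 2 months old, their background was a mixture of the strains 129s6, C57BL/6 and FVB/N, and the tissue is labelled as pancreatic islets. The rat insulin promoter acts in beta cells, while the labels do not name the Cre driver of the knockout mice or say whether animals were pooled. Of the 18 samples in the series 16 were not analysed here, among them the H3K27me3 and input libraries of this age and the H3K4me3 libraries of both genotypes at 6 and 12 months. With 1 library per genotype at this age no value has a replicate error, the read depth is unknown, and a difference between the lists is a difference between 2 libraries. In a whole-islet library, fewer marked cells and less mark per cell cannot be told apart. The labelled tissue was not checked against marker genes, because positions of genes on mm9 were not used here.

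MEIS1 and MEIS2 are transcription factors of the TALE homeobox class. They bind DNA together with PBX proteins and, at many sites, with HOX proteins. Menin, the product of Men1, is a subunit of MLL1 and MLL2 histone methyltransferase complexes that methylate lysine 4 of histone H3. Meis1 is best known as a target of menin and MLL fusion proteins in leukaemia, where it is active with Hoxa genes. In the developing pancreas MEIS and PBX proteins bind an enhancer of Pax6, a gene needed for islet endocrine cells.

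H3K4me3 is placed mainly at promoters rich in CpG dinucleotides, so the 250 bases upstream of the annotated start of each gene are shown, with each CpG in capitals. The sequences are from RefSeq on build GRCm38.p6, 5′ to 3′ on the minus strand, at chr11:19018970-19019219 for Meis1 and chr2:116064620-116064869 for Meis2. That build is not the build of the peaks, so it was not determined which peak holds them.
Meis1: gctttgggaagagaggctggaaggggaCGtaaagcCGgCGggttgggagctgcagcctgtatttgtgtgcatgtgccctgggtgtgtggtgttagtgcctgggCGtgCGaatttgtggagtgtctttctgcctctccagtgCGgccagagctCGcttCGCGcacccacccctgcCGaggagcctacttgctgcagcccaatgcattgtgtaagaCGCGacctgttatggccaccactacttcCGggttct
Meis2: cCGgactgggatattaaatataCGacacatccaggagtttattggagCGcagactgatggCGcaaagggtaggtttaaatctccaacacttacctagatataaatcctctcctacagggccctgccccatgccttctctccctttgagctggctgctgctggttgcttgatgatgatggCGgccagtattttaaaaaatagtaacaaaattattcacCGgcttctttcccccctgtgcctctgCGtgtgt
The Meis1 stretch holds 13 CpG dinucleotides and is 59.6% G and C. The Meis2 stretch holds 7 and is 47.6% G and C. Over 32851 promoter stretches of this length in RefSeq the medians were 6 CpG dinucleotides and 52.4%, and 31.5% of them held at least as many CpG dinucleotides as Meis1 and 46.3% as many as Meis2. On either strand, CCAAT, the core of the CCAAT box, was found once in each stretch and in 33.8% of all stretches. TATAAA was found once in the Meis2 stretch, not in that of Meis1, and in 12.4% of all. TGACAG, the core site bound by MEIS proteins, and GGGCGG, the GC box, were found in neither, and in 15.9% and 32.7% of all stretches. In RefSeq each gene overlaps 1 other gene, the long noncoding RNA Gm16141 at Meis1 and G630016G05Rik at Meis2. The next protein-coding genes are Etaa1 and Spred2 around Meis1, and BC052040 and Tmco5 around Meis2.

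At both loci the knockout list marked less DNA with H3K4me3 than the control list, and the difference was greater at Meis2. Over Meis1, 5 control peaks covered 13558 bp and 3 knockout peaks covered 8549 bp, which is 63.1% of the control length or a log2 ratio of -0.67. Over Meis2, 7 control peaks covered 22865 bp and 5 knockout peaks covered 11115 bp, which is 48.6% or a log2 ratio of -1.04. Over the genome the knockout list covered 90.1% of the control length. Each of the 8 knockout peaks lay whole inside a control peak, so the knockout list added no marked base at either locus. Over the whole knockout list 45.2% of peaks lay inside a control peak.

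**Figure D1:**
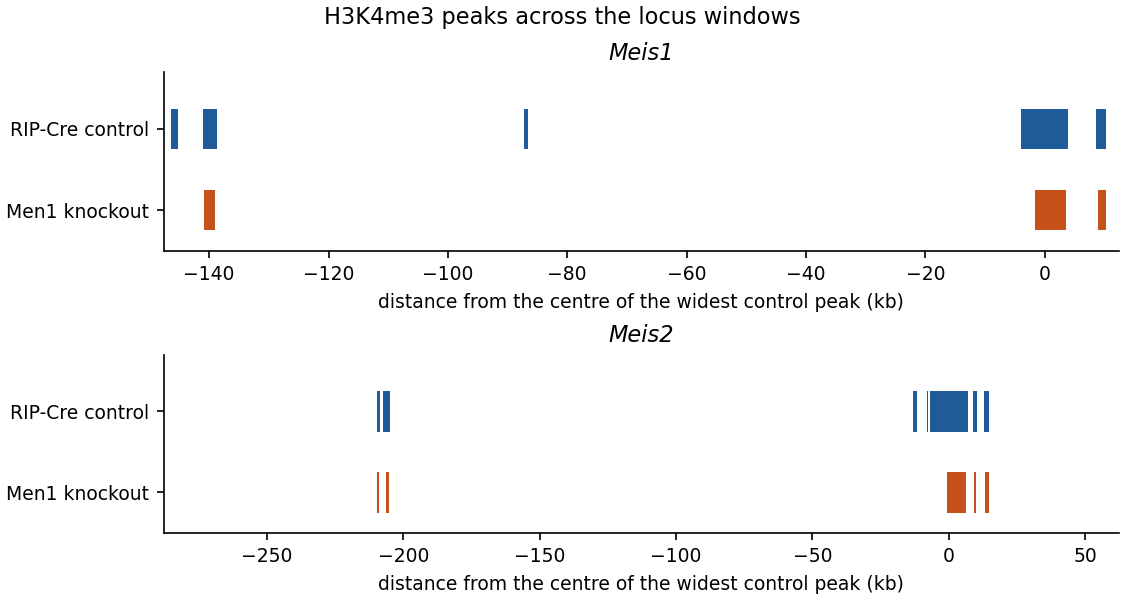
H3K4me3 peaks (bars, to scale) of RIP-Cre control and Men1 knockout islets across the windows of Meis1 and Meis2, by distance in kb from the centre of the widest control peak. The control list has 5 and 7 peaks, the knockout list 3 and 5, and each knockout bar lies under a control bar.

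The peaks of both loci fell into groups that were far apart, with a broad domain in the group at higher coordinates. Both genes are on the minus strand in RefSeq, so that group lies toward their starts and the other toward their ends. At Meis1 the domain and 1 narrower peak 4.73 kb above it formed the first group in the control list. A further pair of control peaks lay 4.34 kb apart near the lower border of the window, and a weak peak lay alone between the groups, 82.7 kb below the domain. At Meis2 the control list had 5 peaks in the group with the domain and, 192 kb below them, 2 peaks that were 1.41 kb apart. The knockout list had at least 1 peak in each of these groups, though none at the lone Meis1 position.

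The broad domains held most of the marked length, and their knockout peaks were shorter. The Meis1 domain ran from 18913649 to 18921533 in the control list (7885 bp) while its knockout counterpart ran from 18915907 to 18921216 (5310 bp), giving a log2 ratio of -0.57. It ranked 36 by width among all control peaks, where 0.164% are as wide, and 185 among knockout peaks, where 0.863% are as wide. The Meis2 domain ran from 115880751 to 115894747 in the control list (13997 bp) while its knockout counterpart ran from 115887218 to 115894085 (6868 bp), giving a log2 ratio of -1.03. It ranked 3 among control peaks and 59 among knockout peaks. Each domain was called as 1 unbroken peak in each list, with the tied score of 3100 that 41.3% of control and 33.4% of knockout peaks reach or exceed. Scores therefore do not separate the domains of the lists, while their lengths do. Of the control length of the locus, the domain made up 58.2% at Meis1 and 61.2% at Meis2. Of the knockout length it made up 62.1% and 61.8%.

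Long H3K4me3 regions elsewhere mostly had similar lengths in both lists. Peaks of both lists that overlapped were joined into 18970 regions marked in both, whose median log2 ratio of knockout over control length was -0.11 (SD 0.29 over regions). The 362 regions with 5000 bp or more in the control list had a median of -0.06, and 15 of them (4.14%) had a ratio as low as the Meis1 domain or lower, itself included. For the Meis2 domain there were 9 (2.49%). Of these long regions 3.87% were at least 1.5-fold shorter in the knockout list, the Meis2 domain among them. In all, 4 regions had a control length of at least 13997 bp, and the Meis2 domain was the 1 of them with a ratio this low. That cut is the domain's own length. Of the 17 regions with a control length within 1.5-fold of it, 11.8% had a ratio as low or lower, itself included. For the Meis1 domain it was 4.2% of 286 such regions.

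**Figure D2:**
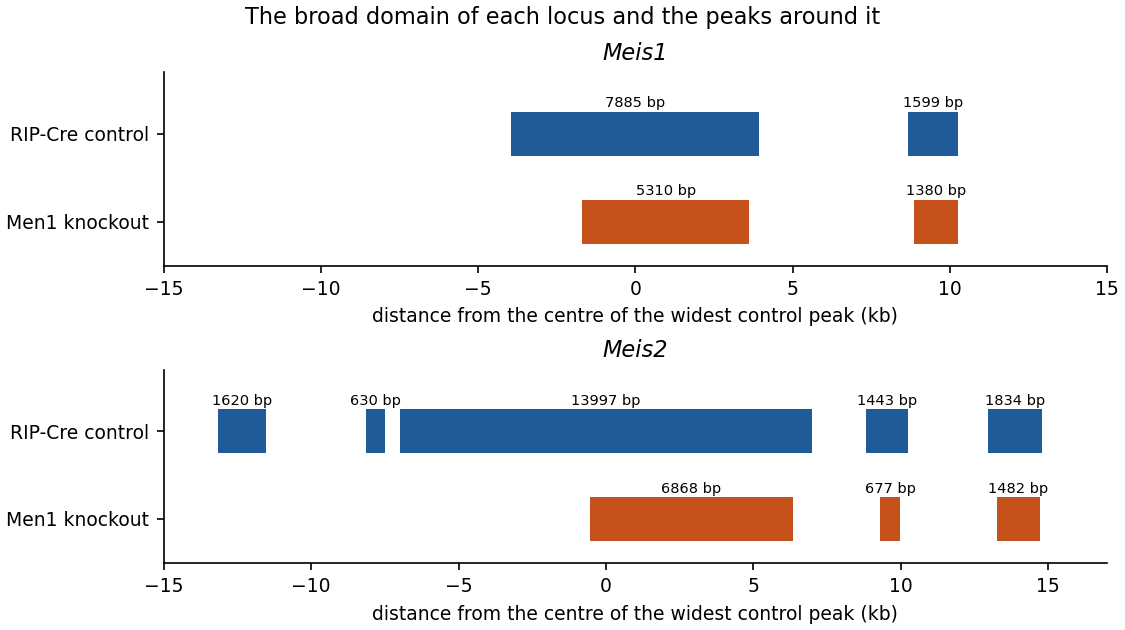
The broad H3K4me3 domain of each locus and the peaks around it, by distance in kb from the centre of the control domain, with peak widths in bp. Peaks are shown within 15 kb of the centre at Meis1, and within 15 kb below and 17 kb above it at Meis2. The high-coordinate ends of the domains nearly line up between the lists, and the low-coordinate ends are 2258 bp apart at Meis1 and 6467 bp apart at Meis2.

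The shorter length of both domains lay almost wholly at the edge facing lower coordinates, toward the end of the gene. At Meis1 that edge was 2258 bp further in in the knockout list and the high-coordinate edge 317 bp, so the low edge accounted for 87.7% of the difference. At Meis2 the values were 6467 bp and 662 bp, with 90.7% at the low edge. Over 18299 pairs of peaks that matched one to one, the medians were 66 bp at the low edge and 70 bp at the high edge. An edge 2000 bp or more further in, a limit chosen after these values were seen, was found in 22 of these pairs (0.120%), and both Meis domains are among them. In 14 of the 22 it was the low edge, in 8 the high edge and in 0 both. Among 270 pairs with at least 5000 bp in the control list, 13 (4.81%) had such an edge. The direction was shared by most of the smaller peaks, over much shorter distances. Where they shared it, their low edges lay 131 to 856 bp further in and their high edges 17 to 262 bp. Some of these distances were close to the medians of all pairs. In 7 of 8 pairs at the loci, both domains included, the low edge lay further in than the high edge by comparison with control. Over all pairs this share was 49.9%. The exception was the lower Meis1 pair (18776628 to 18778942), with 95 bp at its low edge and 361 bp at its high edge.

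**Figure D3:**
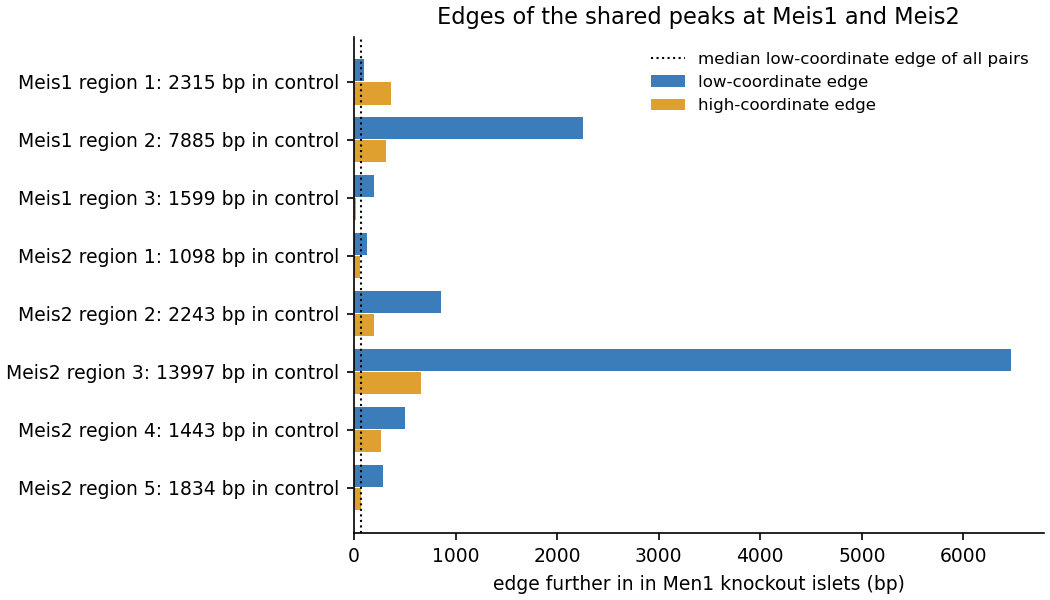
Distance in bp by which each edge of the 8 shared peaks lies further in in the knockout list (blue, low-coordinate edge; yellow, high-coordinate edge; dotted line, median low edge of all pairs, 66 bp), numbered by position within each locus. The low edges of the 7885 bp and 13997 bp domains stand far out from all other bars.

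Beside the domain, the shared peaks of Meis1 differed little and those of Meis2 differed unequally. The lower Meis1 peak measured 2315 bp in the control list and 1859 bp in the other, a log2 ratio of -0.32. The Meis1 peak above the domain (18926265 to 18927863 in control) was 1599 and 1380 bp wide, a ratio of -0.21. These ratios are common, since 18.6% and 30.5% of all shared regions had one as low or lower. At Meis2 the peak just above the domain (115896562 to 115898004 in control) measured 1443 bp in the control list and 677 bp in the other, a ratio of -1.09, reached by 0.87% of regions. The upper peak of the pair at the far end (115680479 to 115682721 in control) was 2243 and 1185 bp wide, a ratio of -0.92, reached by 1.68%. Its neighbour at 115677970 to 115679067 measured 1098 and 903 bp, a ratio of -0.28, and the outermost peak at 115900723 to 115902556 measured 1834 and 1482 bp, a ratio of -0.31. Peaks with large and with small differences thus stood side by side at Meis2, 1.41 kb apart at the far end and 2.72 kb apart above the domain.

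A covered length at least 1.5-fold shorter in the knockout list was found at 3 of 8 shared regions of the loci, and at 6.00% of all shared regions. All 3 were at Meis2, with folds of 2.04, 2.13 and 1.89. None of the 3 Meis1 regions reached this fold, and the Meis1 domain lay just under it at 1.48. A length shorter by any amount was found at all 8 regions and at 73.8% of all shared regions. A 1.5-fold greater length in the knockout list was found at 0.949% of regions and at none of the 8.

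**Figure D4:**
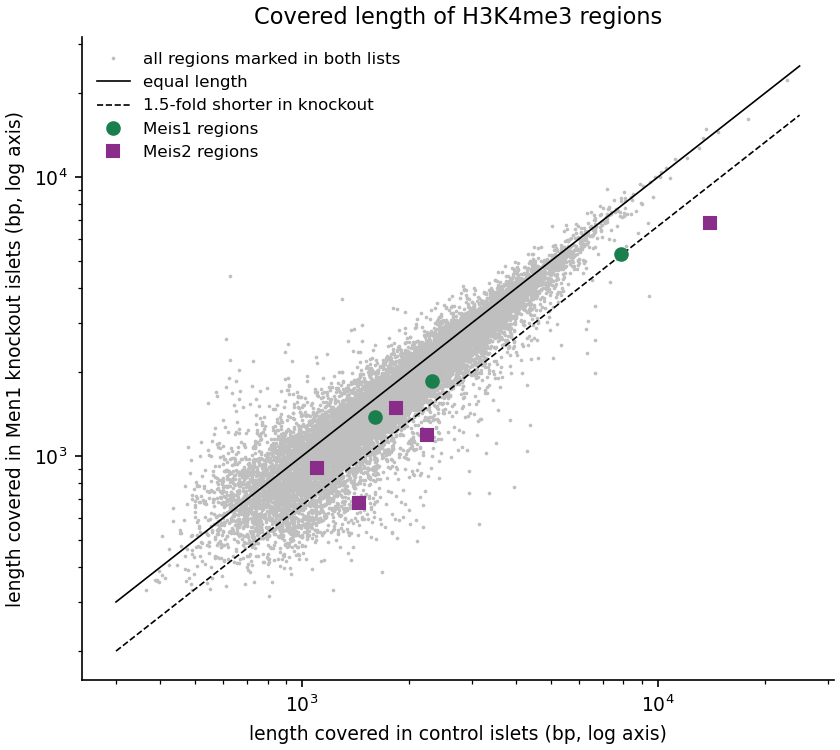
Length covered by H3K4me3 peaks in control (x) and Men1 knockout islets (y), in bp on log axes, for 18970 regions marked in both lists (grey), with the 3 Meis1 regions (green circles) and 5 Meis2 regions (purple squares). The Meis2 domain, at 13997 and 6868 bp, stands apart below the dashed line of a 1.5-fold shorter length, on which the Meis1 domain nearly lies.

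Each locus also had 2 control peaks without a knockout peak, and no knockout peak without a control peak. Such one-list peaks were 4 of the 12 control peaks of the loci, against 12.7% of all control peaks. In the knockout list they were 0 of 8, against 8.71%. At Meis1 they were the peak at 18771230 to 18772290, 1061 bp wide with a score of 137.61, and the lone peak at 18830282 to 18830979, 698 bp wide with a score of 70.32. At Meis2 both lay below the domain, at 115874596 to 115876215 (1620 bp, score 197.82) and at 115879612 to 115880241 (630 bp, score 62.44). The last ended 509 bp from the domain in the control list. All 4 were weak peaks, the lowest score in the control list being 60.01. They were the only 4 control peaks of the loci with a score under 200, a limit set after the values were seen, and all 8 with a higher score had a knockout partner. Over the whole control list 51.5% of peaks scoring under 200 had no knockout peak. Of the 2775 control peaks without a knockout peak, 2393 scored under 200. A partner at higher scores was thus usual over the list, as at the loci.

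The domain accounted for the larger part of the missing length at each locus. That part was below its share of the control length, which was 58.2% at Meis1 and 61.2% at Meis2. At Meis1 the knockout list covered 5009 bp less, of which the domain gave 51.4%, the one-list peaks 35.1% and the other shared peaks 13.5%. At Meis2 it covered 11750 bp less, of which the domain gave 60.7%, the other shared peaks 20.2% and the one-list peaks 19.1%. The other shared peaks alone had a log2 ratio of -0.27 at Meis1 (3914 and 3239 bp) and of -0.64 at Meis2 (6618 and 4247 bp).

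Scores, the authors' deposited values per peak, were compared only within a list. At Meis1 the order was the same in each list: the domain at 3100, then the lower shared peak (1741.07 in control, 992.03 in knockout) and the peak above the domain (1118.57 and 585.05). At Meis2 the outermost peak was the next after the domain in each list (2817.02 in control and 1742.03 in knockout), followed by the wider peak of the far pair (636.1 and 385.45). Among the shared peaks of Meis2 the last places were exchanged. The peak just above the domain (383.8) scored over its far-end counterpart (294.64) in the control list. In the knockout list the former scored lower (108.47 against 201.17).

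Around the loci H3K4me3 peaks were sparse, and few were found in both lists. In the control list the nearest peak outside the Meis1 window lay 915 kb below and 889 kb above it. The knockout list had 2 peaks nearer to Meis1 that the control list lacked: a 2309 bp peak with a score of 520.35 at 118 kb below (18649847 to 18652155) and a 614 bp peak with a score of 61.18 at 321 kb above. The former was wider than each of the one-list control peaks inside the loci. Near Meis2 the control list had one-list peaks of 880 bp at 117 kb below and of 980 bp at 77.1 kb above, with scores of 150.28 and 100.76. The nearest knockout peaks were 192 kb below and 414 kb above. In the 1 Mb below and above Meis1 there were 1 and 2 shared regions, with median log2 ratios of -0.24 and -0.21. In the same flanks of Meis2 there were 1 and 2, with -0.17 and -0.14, and none of these 6 regions was 1.5-fold shorter. Counted over all peaks of a flank, the log2 ratio of covered length was 0.99 below Meis1 (2039 bp in control against 4040 bp in knockout, in 1 and 2 peaks) and 0.01 above it. It was -0.73 below Meis2 (2750 bp against 1663 bp, in 2 and 1 peaks), lower than over the Meis1 window, and -0.19 above it. With 1 to 5 peaks per list in a flank, single one-list peaks set the values below the loci.

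Set beside tiles of the genome with the same length, both loci lay at the low end. Of 2577 tiles of 160 kb with a mean covered length of at least 5526 bp, 42 (1.63%) had a log2 ratio as low as the Meis1 window or lower, and the median tile was at -0.14 (SD 0.20 over tiles). Of 1733 tiles of 350 kb with at least 8495 bp, 4 (0.231%) were as low as the Meis2 window, with a median of -0.15 (SD 0.16). The tiles were laid end to end along each chromosome, while the windows were set around loci already selected on these lists. Each lower limit of covered length was derived from the mean of the locus itself, and tiles holding the Meis peaks were not removed. The shares are therefore a description, and the tiles give the place of these loci in this pair of libraries only.

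The regions elsewhere most like each domain were taken as the 3 with the smallest distance in log2 control and log2 knockout length. For Meis1 they lay on chromosome 7 (13428360 to 13436016, 7657 bp in control and 5087 bp in knockout), chromosome 10 (21711236 to 21719373, 8138 and 5655 bp) and chromosome 3 (57228204 to 57235927, 7520 and 5931 bp). In the first 2 a single control peak faced 3 knockout peaks and both outer edges lay further in by 1070 to 1238 bp. In the chromosome 3 region, with 2 control and 3 knockout peaks, the low edge lay 118 bp further in and the high edge further out (-184 bp). For Meis2 no region came close in these lengths, although 9 of the 362 long regions, the domain included, had a ratio as low. The nearest, on chromosome 2 (147863868 to 147873231), was marked over 9355 bp in the control list and 6858 bp in the knockout list, a distance of 0.581 on the log2 scale, against 0.075 for the nearest to Meis1. The next were on chromosome 8 (11000867 to 11010532, 9666 and 8511 bp) and chromosome 5 (143574190 to 143585106, 10799 and 9959 bp). In each of these 3 regions 1 outer edge gave most of the difference. Unlike the Meis2 domain, the chromosome 2 region had 1 control peak facing 2 knockout peaks. The gap between those 2 gave part of its difference. The low edge lay further in by 1480 bp on chromosome 2 and by 1023 bp on chromosome 8, with -9 and 132 bp at the high edge. On chromosome 5 it was the high edge, by 958 bp, with -118 bp at the low edge, where negative values lie further out in the knockout list.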

How the data were processed

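H3K4me3 peak lists of 2 libraries were used, 1 per genotype. Per the submitters' processing notes, Bowtie, MACS 1.4.2 and build mm9 were used. The use of input as a control, filters and pooling: not given in the sources used here. The 2 deposited lists hold peak positions in bp on mm9 (printed here counted from 1) and the authors' score for every peak, on a scale the lists do not state. Read numbers are not among the columns, so depth is unknown. The genotype, age and mark in a list's name tied it to its sample, and 0 per-sample columns were left unused. The list names carry an unexplained "2nd".

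Peaks were kept whole. An overlap of 1 bp counted as shared, and overlapping peaks of both lists were joined into regions. No test was run and no p-value computed. The members, the locus windows and the comparisons were chosen with earlier results of these data known. The text names every peak of the windows, the nearest outside peaks and the 3 most alike regions per domain. Functions were checked on simulated data and against bedtools 2.31.1, under Python 3.11.15 with pandas 2.3.3. RefSeq (GRCm38.p6) gave promoter sequences and neighbour names for both genes. Placement in exons or introns, other TALE and menin complex genes and cell type markers were not analysed here, since no mm9 annotation was used.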

Additional observations from a re-analysis of the deposited data

How the results depend on the processing

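Of 44 values recomputed under the alternatives, 35 stayed close (within 0.05 on the log2 scale, or within 1.5 times for a count), 9 moved and 0 reversed. The log2 ratio of covered length over Meis1 was -0.59 for peaks with a score of at least 100 and -0.55 after the genome-wide median was subtracted. Over Meis2 it was -1.10 with the window widened by 100 kb on each side, which adds a one-list control peak, and -0.93 with the median subtracted. The Meis2 domain came to -1.09 when peaks within 1 kb were joined, which adds the 630 bp control peak. With a reciprocal overlap of 50%, 4 control and 2 knockout peaks of Meis2 counted as one-list peaks. The share of all peaks that would count so was not computed, so these counts have no background beside them. Of the 18970 shared regions, 235 (1.24%) were shorter in the knockout list at a fold of 2. At a fold of 1.5 after the median was subtracted there were 749 (3.95%), against 1138 (6.00%) without it. At Meis2 2 of the 3 regions past the fold also passed a fold of 2. No paired analysis was possible because a single H3K4me3 library of each genotype was analysed, that of 2 months, and for that reason none could be left out. The libraries of 6 and 12 months were not analysed here. Without the depths, a peak missing from one list may still have been marked below detection.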
